A study of Mus musculus with 8 samples.

Results

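The sarcomeric myosin heavy chain genes Myh7, Myh2, Myh1, Myh4, Myh3 and Myh8 were taken by gene symbol from the deposited table of polyadenylation sites (APSs) of mouse gastrocnemius muscle. They are 6 of 15349 gene symbols and hold 122 of 56483 APSs. Each of the 8 libraries came from 1 mouse and was made by WTTS-seq (whole transcriptome termini site sequencing), a strand-specific method that counts transcripts at their polyadenylated 3′ ends. The groups were 2 mice with a homozygous knockout (KO) of AMPKα1 and 2 wild types (WT), and 2 mice with a homozygous KO of AMPKα2 and 2 WT. Every label reads adult, skeletal muscle and C57BL/6, whereas the study's methods give 129S2/SvPas for the AMPKα1 KO mice. According to those methods, the AMPKα1 KO mice were about 6 and the AMPKα2 KO mice about 8 weeks old, and an age of the WT mice was not given in the sources used here. Both KO lines lack part of the catalytic domain of their kinase subunit in all tissues, so a difference in muscle cannot be assigned to the muscle cells alone. Age and strain cannot be told apart from the model, so KO and WT were compared within each model.

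Myosin heavy chain is the motor of the thick filament, and skeletal muscle fibres are typed by the heavy chain they carry. Myh7 encodes the slow chain of type I fibres (also the β chain of the heart), Myh2 the fast oxidative IIa chain, Myh1 the IIx chain and Myh4 the fast glycolytic IIb chain, while Myh3 is the embryonic and Myh8 the neonatal chain. The mouse gastrocnemius is a mainly fast muscle. AMPK is an energy-sensing kinase that has been linked to oxidative fibre programmes in muscle. Reads of whole tissue cannot separate fewer fibres of a type from less RNA per fibre.

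By the GENCODE M21 annotation of GRCm38, Myh7 lies on the minus strand of chromosome 14 (54970684 to 54994626, 41 exons). The other 5 genes lie on the plus strand of chromosome 11, in the order Myh3 (67078300 to 67102291), Myh2 (67171027 to 67197517), Myh1 (67200052 to 67224575), Myh4 (67238029 to 67260446) and Myh8 (67277124 to 67308634). Their annotated transcripts are close in length, between 5992 bases in Myh3 and 6149 in Myh8. An APS was called terminal where it lay on the strand of the gene in the last exon or at most 2 kb downstream, and internal elsewhere on that strand. By this rule 5 sites were terminal, 110 internal and 7 antisense. Myh1 held 38 sites, Myh2 32, Myh7 24, Myh4 21, Myh8 5 and Myh3 2, and no site of Myh3 or Myh8 was terminal. A site stands for a cluster of read ends, whose span in these genes ran from 6 to 2099 bases (median 242).

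The 3′ ends of the 4 adult genes differ in sequence. The last 30 bases of each annotated transcript are shown, where the main terminal sites lie, with the polyadenylation signal AATAAA in capitals.
Myh7 (chr14:54970684-54970713, minus strand): agAATAAAgcaattttccttaaagccaaaa
Myh4 (chr11:67260417-67260446, plus strand): AATAAAttctgcagataattttgcaatcta
Myh2 (chr11:67197488-67197517, plus strand): aaaaagcccaagttcctttgcaagcaatca
Myh1 (chr11:67224546-67224575, plus strand): actttgggagataaaaaatttatctgccaa
The main terminal site was at 54970687 in Myh7 and at 67260443 in Myh4, each 3 bases before the end of the transcript. It was at the last base in Myh2 (67197517) and 5 bases past the end in Myh1 (67224580). Neither AATAAA nor ATTAAA stood in these windows of Myh2 and Myh1. Searched on the sense strand only, 1 of these hexamers occurred in 44.1% of the same windows of 58793 protein coding transcripts. No match says only that these letters are not in the window.

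Internal sites lie largely in coding sequence, which the genes share. The most read internal site of Myh4 in the AMPKα2 libraries (67253304, exon 26 of 39) has a counterpart in exon 27 of 40 of both Myh1 (67215068) and Myh2 (67189469). The 30 bases that end at each position are shown, with differences from Myh4 in capitals.
Myh4 (chr11:67253275-67253304): ctggcggagccacttcagcccagatcgaga
Myh1 (chr11:67215039-67215068): ctggcggagccacttcagcccaAatcgaga
Myh2 (chr11:67189440-67189469): cCggcggagccacttcagcccagatcgaga
Over the 100 transcript bases before a site, the best match with another of the 6 genes was 41 to 46 bases at the main terminal site of each adult gene. The other terminal site of Myh2 (67198166), which lies downstream of the transcript, was not compared. At the internal sites compared, its median was 79 bases in Myh7 (23 sites), 90 in Myh4 (16), 93 in Myh2 (25) and 95 in Myh1 (27). Reads at internal sites of the chromosome 11 genes may therefore be split between genes by the authors' mapping, and their counts are uncertain. Myh6, the close relative of Myh7, was not compared. The main terminal sites matched far less, so values are given both over all sites and for terminal sites.

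The libraries held 2311242 to 3549156 counted reads, and the 6 genes took 2.331% to 4.455% of them. Intervals given below cover counting error only. For other protein coding genes, terminal shares were taken over the sense reads at sites that could be placed by GENCODE. They were 74.93% to 82.6% in the AMPKα1 libraries and 43.47% to 54.81% in the AMPKα2 libraries. Sites that could not be placed held 15.67% of the reads on all genes. Reads of the targeted genes did not separate the genotypes, with 0 and 82 for Prkaa1 in AMPKα1 KO against 15 and 0 in WT, and 40 and 71 for Prkaa2 in AMPKα2 KO against 87 and 62 in WT. Gene values below are CPM, counts scaled to the TMM-adjusted size of the library, and a log2 fold change above 0 means higher in KO. A gene or site was called at an adjusted p under 0.1 in edgeR's quasi-likelihood test. The biological coefficient of variation over genes was 104% in AMPKα1 and 26.2% in AMPKα2. An exact two-sided permutation test of 2 against 2 libraries cannot give a p under 0.333.

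None of the 6 genes passed the test in either model, while Myh7 was higher in both KO libraries than in both WT libraries of each model. In AMPKα1, 5 genes could be tested and 0 were called, beside 0% of 13924 genes. At an unadjusted p under 0.05, 1 of the 5 was higher (Myh7; all genes, 1.38%) and 1 was lower (Myh1; all genes, 2.85%). Both KO libraries lay above both WT libraries for 1 gene (all genes, 13.6%) and below them for Myh1 and Myh4 (all genes, 18.9%). In AMPKα2, 6 genes were tested and 0 were called, beside 0.484% of 10536 genes. At an unadjusted p under 0.05, 3 were higher (Myh7, Myh2 and Myh3; all genes, 4.78%) and 0 lower (all genes, 3.62%). Both KO libraries lay above both WT libraries for 4 of the 6 (all genes, 18.6%). The median log2 fold change of the tested members was −0.57 in AMPKα1 and 0.64 in AMPKα2, against −0.03 and 0.00 over all genes. With library totals in place of TMM, the median of all genes moved to 0.22 and −0.19.

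**Figure D1:**
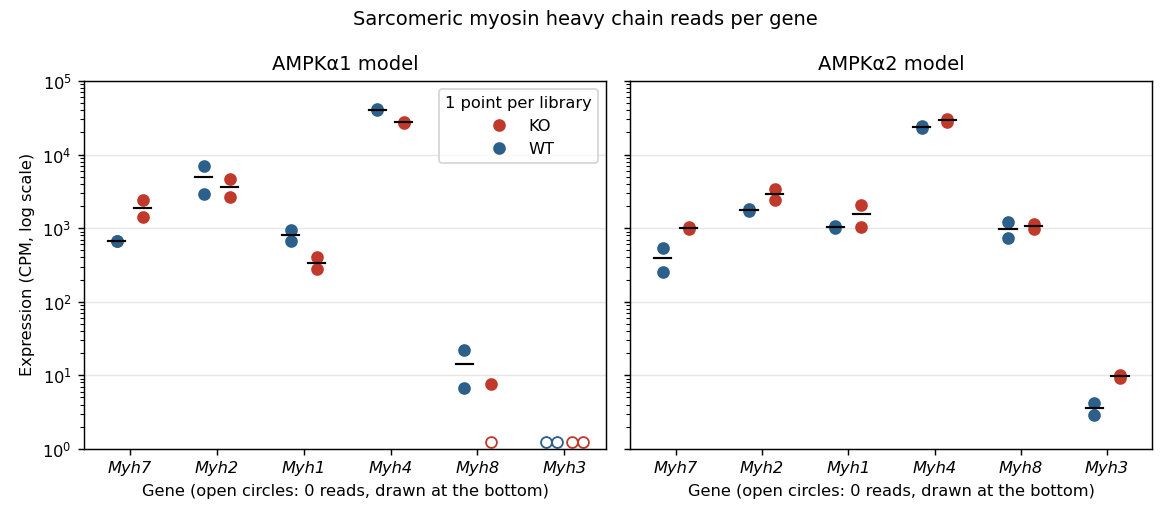
Expression of the 6 genes in CPM on a log axis, 1 point per library (KO red, WT blue), with the mean of 2 libraries as a bar and libraries without a read as open circles at the bottom. Myh4 was the highest gene in each library, Myh7 was higher in KO in both models, and Myh8 and Myh3 lay far lower in AMPKα1 than in AMPKα2.

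Myh7, the slow chain, had 8421 and 5128 reads in the AMPKα1 KO libraries against 1220 and 2273 in WT. Its expression was 2395 and 1416 CPM in KO against 666 and 659 CPM in WT, or 1905 ± 693 against 662 ± 5.30 CPM (SD, n = 2). Both KO libraries were higher, and the WT libraries lay close together. The log2 fold change was 1.52 (standard error 0.39, 2.88-fold), with an adjusted p of 0.763 in edgeR's test. DESeq2, the tool named in the study's methods, gave 1.57 (standard error 0.40) and called the gene (adjusted p = 0.0286), as it did 0.787% of 14612 genes.

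In the AMPKα2 libraries, Myh7 had 1607 and 2474 reads in KO against 862 and 1136 in WT. This was 1025 and 973 CPM in KO against 252 and 536 CPM in WT, or 999 ± 36.5 against 394 ± 201 CPM (SD, n = 2). The KO libraries were again both higher, and here the WT libraries were further apart. The log2 fold change was 1.34 (standard error 0.35, 2.54-fold), with an adjusted p of 0.258 in edgeR's test. DESeq2 gave 1.35 (standard error 0.37) with an adjusted p of 0.0291, a call it made for 0.508% of 14574 genes. With 1 library left out, the log2 fold change lay between 1.09 and 1.85 in AMPKα1 and between 0.88 and 1.99 in AMPKα2, the lowest without AMPKα2 WT 1. The KO effect on Myh7 did not differ detectably between the models (interaction −0.21 on the log2 scale, standard error 0.59, edgeR adjusted p = 1.000).

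The terminal site of Myh7, which matched the other 5 genes at no more than 44 of 100 bases, gave the same order. It had 8421 and 5128 reads in the AMPKα1 KO libraries against 1210 and 2238 in WT (log2 fold change 1.41, standard error 0.40, edgeR adjusted p = 0.543). The AMPKα2 libraries had 892 and 1255 reads in KO against 490 and 650 in WT (log2 fold change 1.10, standard error 0.41, edgeR adjusted p = 0.629). In CPM, both KO libraries were above both WT libraries in each model.

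Myh2, the IIa chain, was the second most abundant member in each group. In AMPKα1 it had 4674 and 2661 CPM in KO against 7050.2 and 2919 CPM in WT, and the ranges overlapped. The log2 fold change was −0.44 (standard error 0.52, edgeR adjusted p = 0.966) and turned to 0.33 without AMPKα1 WT 1. In AMPKα2 it had 3355 and 2443 CPM in KO against 1811 and 1702 CPM in WT, or 2899 ± 645 against 1756 ± 77.1 CPM (SD, n = 2). Both KO libraries were higher, by 0.72 on the log2 scale (standard error 0.30, edgeR adjusted p = 0.554). The main terminal site of Myh2 had 1639 and 2448 reads in the AMPKα2 KO libraries against 1517 and 1587 in WT (log2 fold change 0.62, standard error 0.35, edgeR adjusted p = 0.702).

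Myh1, the IIx chain, had 404 and 278 CPM in the AMPKα1 KO libraries against 671 and 940.3 CPM in WT, or 341 ± 88.6 against 806 ± 190.4 CPM (SD, n = 2). Both KO libraries were lower (log2 fold change −1.24, standard error 0.40, edgeR adjusted p = 0.763). In AMPKα2 it had 2042 and 1049 CPM in KO against 1014 and 1079 CPM in WT, and the ranges overlapped (log2 fold change 0.56, standard error 0.33, edgeR adjusted p = 0.683). The high value came from AMPKα2 KO 1, without which the log2 fold change was 0.01. At the terminal site of Myh1 both AMPKα2 KO libraries were higher, with 54.8 and 53.0 CPM against 36.8 and 39.9 CPM in WT. Its log2 fold change was 0.49 (standard error 0.33, edgeR adjusted p = 0.728). Of the 6 genes, Myh1 alone had an interaction of genotype and model at an unadjusted p under 0.05, beside 6.93% of 15349 genes (1.77 on the log2 scale, AMPKα2 minus AMPKα1, standard error 0.55, edgeR adjusted p = 0.530). No member passed the adjusted threshold, beside 0.0586% of genes.

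Myh4, the IIb chain, had the most reads in every library. In AMPKα1 it had 27969.9 and 26761 CPM in KO against 41576 and 39792 CPM in WT, or 27365 ± 855 against 40684 ± 1261 CPM (SD, n = 2). Both KO libraries were lower (log2 fold change −0.57, standard error 0.26, edgeR adjusted p = 0.763). For AMPKα2 the values were 30541 and 27664 CPM in KO against 22756 and 24453 CPM in WT, and both KO libraries were higher (log2 fold change 0.30, standard error 0.36, edgeR adjusted p = 0.867). This direction rested on internal sites. With only the terminal sites of the 6 genes summed, the log2 fold change of Myh4 was −0.06 in AMPKα2 and −0.67 in AMPKα1. Tested as a site, its terminal site had −0.19 in AMPKα2 (standard error 0.31, edgeR adjusted p = 0.890). In AMPKα1 this site had −0.80 (standard error 0.26, edgeR adjusted p = 0.543).

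Myh8, the neonatal chain, had 27 and 0 reads in the AMPKα1 KO libraries against 40 and 23 in WT. In AMPKα2 it had 1526 and 2913 reads in KO against 2519 and 2575 in WT, or 1059.6 ± 122 against 976 ± 339 CPM (SD, n = 2). The ranges overlapped in both models, with log2 fold changes of −1.88 (standard error 2.29) and 0.12 (standard error 0.30) and edgeR adjusted p of 0.977 and 0.947. Nearly all of these reads came from 1 site at 67297648, in intron 24, whose cluster spans 67297576 to 67297923 and reaches into the exon before it. The last 30 exon bases before it occur unchanged in exon 23 of Myh4, and they are shown because they do not tell the genes apart.
Myh8 (chr11:67297593-67297622): aaaaccaagctggaacagcaagtggatgac
Myh4 (chr11:67252329-67252358): aaaaccaagctggaacagcaagtggatgac
Over 100 exon bases before this site, 100 matched Myh4. The table, which holds sites with at least 16 reads over the 8 libraries, lists no terminal site of Myh8. By these exon bases the reads cannot be assigned to Myh8 over Myh4. The intron bases of the cluster were not compared, and whether they stem from Myh4 transcripts was not tested.

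Myh3, the embryonic chain, had 0 reads at its 2 listed sites in all 4 AMPKα1 libraries. The AMPKα2 libraries held 16 and 23 reads in KO against 10 and 9 in WT, or 9.63 ± 0.817 against 3.59 ± 0.938 CPM (SD, n = 2). Both KO libraries were higher (log2 fold change 1.44, standard error 0.47, edgeR adjusted p = 0.381). These reads lay in exons 22 and 29, where 97 and 94 of 100 bases matched Myh8, and no site was terminal.

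Per kilobase of transcript, mean levels in AMPKα1 WT were 6763 CPM per kb for Myh4, 819 for Myh2, 132 for Myh1 and 108 for Myh7. In AMPKα1 KO, Myh7 stood at 311 CPM per kb and Myh1 at 56.1. The WT order of this pair rested on internal Myh1 reads. At terminal sites, Myh7 lay above Myh1 in AMPKα1 WT as well, with 1210 and 2238 reads against 477 and 1020. In AMPKα2 WT, the order was 3924 CPM per kb for Myh4, 289 for Myh2, 172 for Myh1, 159 for Myh8, 64.2 for Myh7 and 0.598 for Myh3. In AMPKα2 KO, Myh4 stood at 4838 and Myh2 at 477 CPM per kb, and Myh1, Myh8 and Myh7 followed at 254, 172 and 163. The place of Myh1 above Myh7 rested on internal Myh1 reads in AMPKα2 as well. At terminal sites, Myh7 had 490 and 650 reads in AMPKα2 WT against 144 and 97 for Myh1. The terminal reads in AMPKα2 KO were 892 and 1255 for Myh7 against 112 and 164 for Myh1. Myh8 is ranked by its assigned symbol only, since nearly all its reads came from a site whose exon bases match Myh4. The method counts 3′ ends, so reads need not scale with transcript length. The libraries of Myh1 and Myh8 overlapped in both AMPKα2 groups and those of Myh8 and Myh7 overlapped in AMPKα2 KO, so these neighbours did not differ beyond their spread.

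As a measure of fibre type composition in RNA, each adult isoform was expressed as its share of the summed reads of Myh7, Myh2, Myh1 and Myh4. Myh7 made up 6.76% and 4.55% of these reads in the AMPKα1 KO libraries (95% Clopper-Pearson intervals 6.62% to 6.90% and 4.43% to 4.67%). In AMPKα1 WT it made up 1.33% and 1.49% (1.26% to 1.41% and 1.43% to 1.55%). The mean was 5.65% ± 1.56 in KO and 1.41% ± 0.108 in WT (SD, n = 2), a difference of 4.24 percentage points. In AMPKα2, Myh7 made up 2.77% and 3.03% in KO and 0.975% and 1.93% in WT, or 2.90% ± 0.181 against 1.45% ± 0.676 (SD, n = 2). The difference was 1.45 percentage points, and the slow share lay higher in each KO library than in each WT library of both models. The exact two-sided permutation test gave p = 0.333 in either model, the smallest it can give.

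Myh2 made up 13.2% and 8.55% of the adult myosin reads in AMPKα1 KO and 14.1% and 6.59% in WT, with overlapping ranges. In AMPKα2 its share was 9.08% and 7.60% in KO and 7.01% and 6.13% in WT, higher in both KO libraries (difference 1.77 percentage points, exact permutation p = 0.333), a difference of 1.04 points without AMPKα2 KO 1. Myh1 made up 1.14% and 0.894% in AMPKα1 KO and 1.34% and 2.12% in WT, lower in both KO libraries (difference −0.716 percentage points, exact permutation p = 0.333). Without AMPKα1 WT 2 the difference was −0.327 and without AMPKα1 WT 1 it was −1.11 points. In AMPKα2 its share was 5.52% and 3.26% in KO and 3.93% and 3.89% in WT, and the ranges overlapped.

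Myh4 was the bulk of the reads, with 78.9% and 86.0% in AMPKα1 KO and 83.2% and 89.8% in WT, which overlapped. In AMPKα2, Myh4 made up 82.6% and 86.1% in KO and 88.1% and 88.1% in WT, lower in both KO libraries (difference −3.71 percentage points, exact permutation p = 0.333). This difference was −1.97 points without AMPKα2 KO 1 and −5.44 without AMPKα2 KO 2. Shares sum to 100% in a library and are not independent of each other.

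Over terminal sites alone, where the genes differ in sequence, the Myh7 share was 6.45% ± 1.62 against 1.52% ± 0.149 in AMPKα1 and 5.66% ± 0.398 against 2.44% ± 0.902 in AMPKα2 (KO against WT, SD, n = 2). For Myh2 in AMPKα2 it was 10.8% ± 0.279 against 6.62% ± 1.36, and for Myh4 82.9% ± 0.708 against 90.4% ± 2.21. The KO and WT ranges did not overlap for these values. The Myh1 share of terminal reads was under 1% in every library, and in AMPKα1 its KO and WT ranges overlapped (0.356% ± 0.298 against 0.648% ± 0.129, SD, n = 2, exact permutation p = 0.667), unlike those over all sites. In AMPKα2 this share was 0.724% ± 0.0305 in KO against 0.494% ± 0.0496 in WT (SD, n = 2, exact permutation p = 0.333). These ranges did not overlap, whereas those over all sites did. Division by transcript length moved no share by more than 0.228 percentage points.

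**Figure D2:**
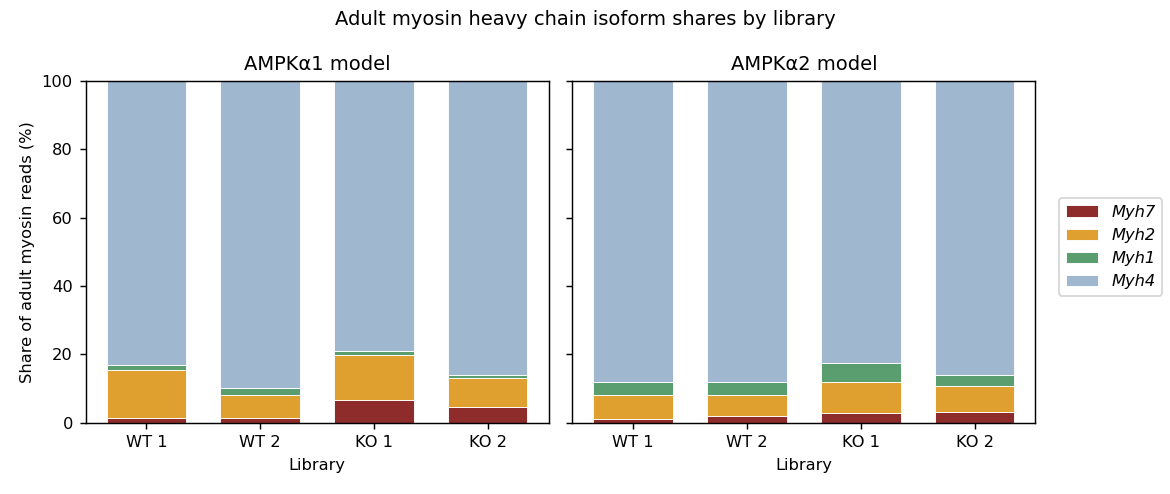
Share of Myh7, Myh2, Myh1 and Myh4 in their summed reads (%, stacked to 100) in each of the 8 libraries. The Myh7 band at the foot was 6.76% and 4.55% in AMPKα1 KO against 1.33% and 1.49% in WT, and 2.77% and 3.03% in AMPKα2 KO against 0.975% and 1.93% in WT.

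The place of the reads within the genes differed between the libraries of the models. In AMPKα1, 98.5% to 100% of the sense reads of Myh7, 96.8% to 98.0% of Myh2 and 84.6% to 93.8% of Myh4 fell on terminal sites. In AMPKα2 these shares were 50.7% to 57.2%, 24.8% to 44.5% and 25.8% to 36.3%. Myh1 stood apart from the other adult genes, with 14.6% to 50.1% terminal reads in AMPKα1 and 3.50% to 6.16% in AMPKα2. Of the 110 internal sites, 20 to 37 had a read in an AMPKα1 library and 106 to 110 in an AMPKα2 library. Terminal shares of other coding genes were also lower in AMPKα2, as given above. The libraries differed in composition too, with 97.15% to 98.12% of reads on genes in AMPKα1 and 82.06% to 84.66% in AMPKα2. The most read site took 2.5% to 4.56% of an AMPKα1 library. In AMPKα2 it was a site of Rn18s-rs5, with 17.0% and 11.56% in KO against 13.43% and 14.58% in WT. Whether this bears on the place of the myosin reads was not tested. What the libraries of the models share beside the KO line, such as age, cannot be told apart from it.

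Within models, the terminal share of Myh4 was lower in both KO libraries than in both WT libraries. It was 87.5% and 84.6% in AMPKα1 KO against 93.8% and 91.0% in WT, and 25.8% and 27.7% in AMPKα2 KO against 32.1% and 36.3% in WT (differences −6.34 and −7.45 percentage points, exact permutation p = 0.333 in each). The shares of Myh1 overlapped in both models and those of Myh2 in AMPKα2, where AMPKα2 WT 1 and WT 2 alone ranged from 24.8% to 44.5%. For Myh2 in AMPKα1, KO was 0.849 percentage points lower than WT (exact permutation p = 0.333), and 0.547 points lower without AMPKα1 WT 1. The terminal share of other coding genes, over placed sense sites, was also lower in both KO libraries of each model. It was 78.3% and 74.93% in AMPKα1 KO against 82.6% and 78.5% in WT. In AMPKα2 it was 43.47% and 52.09% in KO against 52.33% and 54.81% in WT. The part of this shift in the values of Myh4 and Myh2 was not tested.

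**Figure D3:**
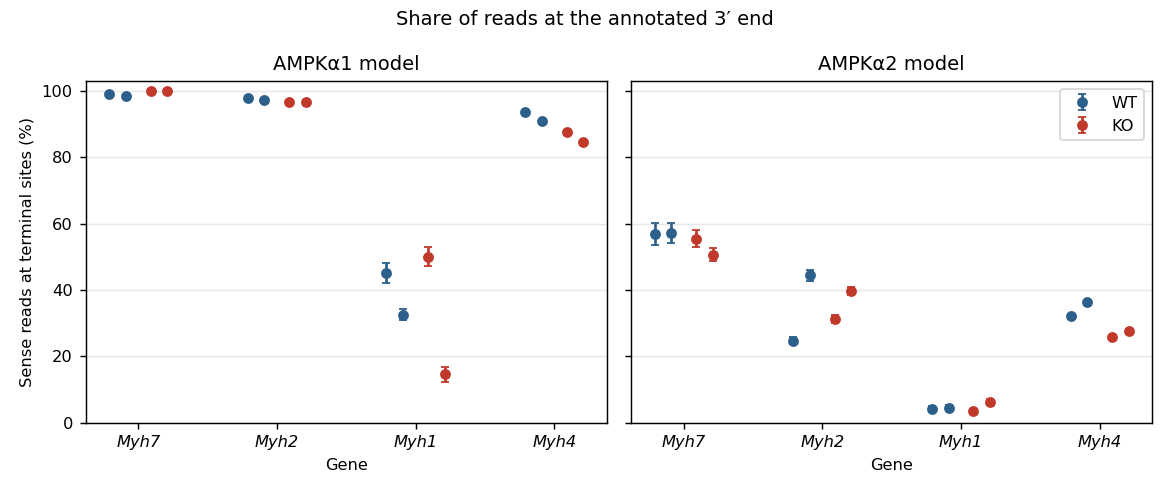
Share of sense reads at terminal sites (%) for the 4 adult genes, 1 point per library, with 95% Clopper-Pearson intervals. Myh7, Myh2 and Myh4 lay above 84% in AMPKα1, between 24% and 58% in AMPKα2, and Myh4 was lower in KO in both models.

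Site by site, no member was called in either model. In AMPKα1, 46 of the 122 sites passed the filter of 16 reads over the 4 libraries, and 0 were called beside 0.00454% of 44024 APSs. An unadjusted p under 0.05 was found at 1 higher site (the terminal site of Myh7; all APSs, 0.691%) and 4 lower sites (all APSs, 2.38%). Both KO libraries lay above both WT libraries at 2 of the 46 (all APSs, 9.01%) and below them at 15 (all APSs, 18.2%). Some of these 15 had 0 reads in both KO libraries and passed the filter through WT reads alone. An example is the Myh2 site at 67189469, with 0 and 0 reads in KO against 12 and 24 in WT. The number of lower sites is therefore no support for a direction. DESeq2 called 0 of these sites, beside 0.442% of 49369 APSs. In AMPKα2, 113 sites passed the filter and 0 were called, beside 0.0560% of 23218 APSs. At an unadjusted p under 0.05 there were 31 higher sites (all APSs, 5.11%) and 4 lower ones (all APSs, 2.49%). Both KO libraries lay above both WT libraries at 56 of these 113 sites (all APSs, 18.8%) and below them at 9 (all APSs, 20.9%). Sites of 1 gene share its transcripts and are not independent. The median log2 fold change over the 113 sites was 0.96, against 0.01 over all APSs.

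The 24 sites of Myh7 in AMPKα2 all had a log2 fold change above 0 (all APSs, 50.8%), with 0.43 to 2.42 at the 23 internal sites and a median of 1.24. At 17 of the 24, both KO libraries were above both WT libraries (all APSs, 18.8%), and these sites share the transcripts of 1 gene. The most read internal site (54983555, exon 24) had 230 and 574 reads in KO against 101 and 197 in WT (log2 fold change 1.49, standard error 0.55, edgeR adjusted p = 0.629). The next (54982170, exon 26) had 62 and 130 in KO against 71 and 46 in WT (log2 fold change 0.97, standard error 0.37, edgeR adjusted p = 0.629). In AMPKα1, reads at the site in exon 24 were 0 and 0 in KO against 7 and 35 in WT.

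Among the 30 sites of Myh2 tested in AMPKα2, 26 had a log2 fold change above 0, with a median of 1.48 over the internal ones. This was larger than the 0.62 of the main terminal site, but a median counts each site alike, whatever its reads. The terminal share of Myh2 overlapped between KO and WT (means 35.5% and 34.6%). The most read internal site (67194473, exon 36) had 1291 and 1855 reads in KO against 3393 and 893 in WT, so AMPKα2 WT 1 held the highest count. Its log2 fold change was 0.00 (standard error 0.42). Next in AMPKα2 was the site at 67189469, with the sequence shared by Myh4 and Myh1, with 220 and 182 reads in KO against 284 and 338 in WT (log2 fold change −0.34), and its ranges overlapped in CPM. Second over the 8 libraries was the site at 67188862 (intron 24), with 303 and 396 in KO against 164 and 93 in WT (log2 fold change 1.78, standard error 0.33, edgeR adjusted p = 0.331). DESeq2 called 4 Myh2 sites higher, this one (adjusted p = 0.0111) and those at 67176363 in exon 7, 67181242 in exon 16 and 67193003 in exon 33 (adjusted p = 0.0532, 0.0934 and 0.0766), beside 0.192% of 50017 APSs. These last 3 sites and that at 67189469 were named after their values were seen.

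For Myh4 in AMPKα2, 17 of 20 tested sites had a log2 fold change above 0, with a median of 0.61 over internal sites, while the terminal site had −0.19 (standard error 0.31, edgeR adjusted p = 0.890). The internal site at 67250938 (exon 21) had 7010 and 8592 reads in KO against 12065 and 6755 in WT (log2 fold change 0.08). That at 67253304, with the sequence shared by Myh1 and Myh2, had 8258 and 19270 in KO against 14859 and 11684 in WT (log2 fold change 0.26). Neither pair of ranges was separated. In AMPKα1, the site in exon 21 was the main internal one, with 11241 and 13585 reads in KO against 3802 and 11315 in WT (log2 fold change 0.27, standard error 0.34, edgeR adjusted p = 0.890).

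For Myh1, the internal site at 67211514 (exon 22) held more reads than the terminal site in both models, summed over libraries. It had 439 and 529 reads in AMPKα1 KO against 359 and 1608 in WT (log2 fold change −1.39, standard error 0.52, edgeR adjusted p = 0.543). In AMPKα2 it had 301 and 380 in KO against 603 and 288 in WT (log2 fold change −0.01). The site at 67215068, with the shared sequence, had 274 and 448 reads in AMPKα2 KO against 336 and 385 in WT (log2 fold change 0.20), and 31 reads in AMPKα1 WT 1 alone. The terminal site had 629 and 141 reads in AMPKα1 KO against 477 and 1020 in WT (log2 fold change −1.49, standard error 0.62, edgeR adjusted p = 0.543).

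**Figure D4:**
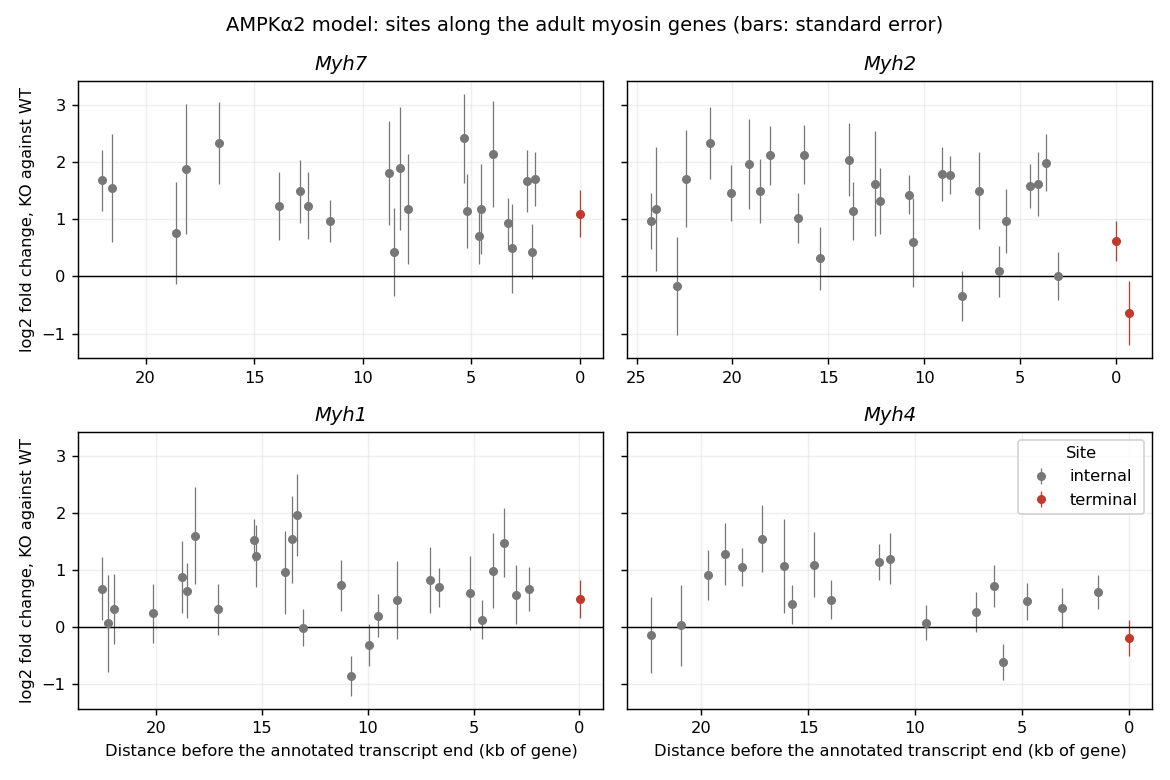
Log2 fold change of KO against WT in AMPKα2 (points, with standard error) at the tested sense sites of the 4 adult genes, by distance in kb before the annotated transcript end. All sites of Myh7 lay above 0, the internal sites of Myh2 had a median of 1.48 with the most read at 0.00, and the terminal site of Myh4 lay at −0.19.

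Reads on the opposite strand were found in introns of Myh1 and Myh2. The method keeps strand, but how many reads of the sense transcript it places on the opposite strand was not measured, and an antisense site in the table names only the gene it crosses. In Myh1 they summed to 163 and 39 reads in AMPKα1 KO against 169 and 116 in WT, which overlapped. In AMPKα2 they summed to 4 and 5 reads in KO against 49 and 44 in WT, while its sense reads were 3197 and 2661 in KO against 3422 and 2241 in WT. Of the 7 antisense sites, 4 passed the filter in AMPKα2, mostly through their WT reads, so their number is no support for a direction, and the other 3 had at most 2 reads over the model. The one with the most reads (67224194, antisense to intron 39) had 1 and 0 reads in KO against 23 and 17 in WT (log2 fold change −4.73, standard error 0.98, edgeR adjusted p = 0.413). In AMPKα1 it had 121 and 12 in KO against 102 and 45 in WT. The antisense site of Myh2 (67196756) had 0 and 0 reads in AMPKα1 KO against 11 and 44 in WT, and at most 1 read in an AMPKα2 library.

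Whether the sites of a gene were used in other proportions was tested with edgeR's diffSpliceDGE. No site of the 6 genes was called, beside 0.00601% of 33281 sites in AMPKα1 and 0.129% of 14707 in AMPKα2. At an unadjusted p under 0.05 there were 2 of 45 sites in AMPKα1 (all sites, 2.38%) and 9 of 113 in AMPKα2 (all sites, 3.38%). The lowest p was that of the Myh1 antisense site at 67224194 in AMPKα2 (−3.57 on the log2 scale against the rest of the gene, edgeR adjusted p = 0.405).

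The partners of myosin were read from gene lists and are given by counts. Of 20 tested genes of the thick filament and of myosin assembly, 1 was called higher in AMPKα2 and 0 lower (all genes, either direction, 0.484%). It was Hspb7, a small heat shock protein of muscle, with 126 and 168 CPM in KO against 50.9 and 41.5 CPM in WT (log2 fold change 1.67, standard error 0.26, edgeR adjusted p = 0.0271). In AMPKα2, 11 of the 20 had both KO libraries above both WT libraries (all genes, 18.6%), with a median log2 fold change of 0.43. In AMPKα1, 0 were called, 1 was lower at an unadjusted p under 0.05 (all genes, 2.85%), and 1 was above (all genes, 13.6%) and 4 were below (all genes, 18.9%), with a median of −0.05. In AMPKα1, DESeq2 called the fast light chain gene Mylpf lower (all genes, either direction, 0.787%). Mylpf is named after its values were seen.

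Of 11 tested slow fibre genes (slow troponins, light chains, tropomyosin and others), 0 were called in AMPKα2, while 9 had both KO libraries above both WT libraries (all genes, 18.6%) and 6 were higher at an unadjusted p under 0.05 (all genes, 4.78%). Their median log2 fold change was 0.86, and DESeq2 called 1 of them, Tnnt1, higher (all genes, either direction, 0.508%). In AMPKα1, 0 of 12 were called by either tool, and 1 was higher (all genes, 1.38%) and 1 lower (all genes, 2.85%) at an unadjusted p under 0.05, with a median of 0.54. Both KO libraries lay above both WT libraries for 1 of these 12 (all genes, 13.6%) and below them for 1 (all genes, 18.9%). The summed levels of the 12 genes overlapped. Of 13 fast fibre genes, 0 were called in AMPKα1, while 11 had both KO libraries below both WT libraries (all genes, 18.9%) and 5 were lower at an unadjusted p under 0.05 (all genes, 2.85%), with a median of −0.81, and DESeq2 called Mylpf, which is on both lists. In AMPKα2, 0 of 13 were called by either tool, 1 was higher at an unadjusted p under 0.05 (all genes, 4.78%), 5 were above (all genes, 18.6%) and 1 was below (all genes, 20.6%), with a median of 0.14. The median over all genes stood at −0.03 in AMPKα1 and 0.00 in AMPKα2. By library totals, the median log2 ratio of mean CPM of the fast genes was −0.47 in AMPKα1 (all genes, 0.21) and −0.10 in AMPKα2 (all genes, −0.17). Of the other sarcomeric myosins (Myh6, Myh7b, Myh13 and Myh15), 3 were tested in AMPKα1 and 2 in AMPKα2, and 0 were called by either tool or had an unadjusted p under 0.05.

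No marker of other cells was called by edgeR in AMPKα1, while the summed levels of 3 lists lay apart by genotype. All 5 nerve and Schwann cell genes were lower in both KO libraries than in both WT libraries (all genes, 18.9%), with a summed level of 515 to 610.1 CPM in KO and 732 to 1383 CPM in WT. The 6 fibroblast genes summed to 11119.7 to 11174 CPM in KO and 12251 to 15949.6 CPM in WT, with 2 of the 6 below WT in both KO libraries (all genes, 18.9%). The 5 smooth muscle genes summed to 292 to 293 CPM in KO and 123 to 206 CPM in WT, with 1 gene above (all genes, 13.6%) and 1 below (all genes, 18.9%). None of these markers was at 0 in the model. By edgeR 0 of these 16 genes were called. At an unadjusted p under 0.05, 1 was higher (all genes, 1.38%) and 3 were lower (all genes, 2.85%). DESeq2 called Myl9 higher (all genes, either direction, 0.787%). In AMPKα2, the fibroblast genes summed to 2136 to 3680.0 CPM in KO and 1691 to 2231 CPM in WT and overlapped. The nerve genes ranged from 79.8 to 245 CPM in AMPKα2 WT, and both KO libraries lay within that range. The part of these differences in the myosin values was not tested.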

How the data were processed

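Counts of 8 WTTS-seq libraries were analysed. According to their methods, the authors filtered reads by quality, removed leading Ts, aligned them with TMAP (GRCm38.p5 per the labels), clustered read ends into APSs and assigned genes with Cuffcompare. The deposited counts are raw reads per APS, with at least 16 reads over all libraries. Counts were summed per gene symbol over both strands, and 9.33% of reads had no gene. Tests of KO against WT in each model used edgeR 4.0.16 (TMM, robust quasi-likelihood test, at least 16 reads over 4 libraries, Benjamini-Hochberg adjustment over all features). Approximate standard errors came from F statistics. DESeq2 1.42.0 was an alternative. Shares used Clopper-Pearson intervals and exact permutation tests (scipy 1.17.1). The mice of a group were separate animals. The code was tested on simulated data. Sites were placed, and sequences read, from GENCODE M21, which shares GRCm38 coordinates. The 6 genes and all lists were chosen with earlier results of these data known. Named were the 6 genes, their main terminal site, 2 internal and 1 antisense site per gene with the most reads, sites and list genes past the threshold, and, for each adult gene, the 3 genes most like it. Other settings changed the tool, scaling, filter, libraries, replicate block and sites summed. KO and WT libraries share replicate numbers but come from different mice. Of the paper's other assays, none was analysed here, and the DESeq2 calls of the thick filament list in AMPKα2 are not reported here.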

Additional observations from a re-analysis of the deposited data

Results flagged for a closer look

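Myh4 expression moved in opposite directions in the models, with both KO libraries below both WT libraries in AMPKα1 (log2 fold change −0.57) and above them in AMPKα2 (log2 fold change 0.30). The interaction of genotype and model gave 0.85 (standard error 0.43, edgeR adjusted p = 0.756) and did not pass the threshold. With only the terminal sites of the 6 genes, the AMPKα2 value was −0.06.

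The terminal share of Myh7 was higher in both KO libraries in AMPKα1, by 1.18 percentage points, and lower in both KO libraries in AMPKα2, with a difference of −3.91 percentage points. The latter was −1.52 without AMPKα2 KO 2 and −6.30 without AMPKα2 KO 1, and the interval of AMPKα2 KO 1 (55.5%, 53.0% to 58.0%) overlapped that of WT 1 (56.8%, 53.5% to 60.2%). This difference between the models was not tested.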

How the results depend on the processing

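Each group held 2 mice, the coefficient of variation over genes was 104% in AMPKα1, and how far depth limits the calls was not tested. Which gene internal reads stem from limits Myh1, Myh2, Myh4 and Myh8. In all settings run, each log2 fold change of Myh7 against WT stayed above 0, and its calls depended on the setting. In AMPKα2, Myh7 was called by DESeq2, with library totals (1.19, edgeR adjusted p = 0.0848), without a filter on low counts (1.34, edgeR adjusted p = 0.000378) and with terminal sites of every protein coding gene (1.30, edgeR adjusted p = 0.0331), a setting chosen after seeing the data. Over its alternatives, the adjusted p of Myh7 ran from 0.0286 to 1.000 in AMPKα1 and from 0.000378 to 1.00 in AMPKα2. The causes were not tested.

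At gene level the members called went from 0 to 1 with DESeq2 in each model and, in AMPKα2, to 1 with library totals, without the filter and with terminal sites of every protein coding gene. All genes called went from 0 to 115 (DESeq2) and 83 (all 8 libraries fitted together) in AMPKα1. In AMPKα2 they went from 51 to 161 (library totals), 376 (no filter), 96 (at least 10 reads in every library of 1 group), 4 (8 libraries together) and 77 (replicate block), and to 29 to 89 with 1 library left out.

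At site level in AMPKα1, members called went from 0 to 1 (library totals), 3 (at least 10 reads) and 3 (8 libraries together), and to 0 to 1 with 1 library left out. All APSs called went from 2 to 218 (DESeq2), 48 (library totals), 4 (no filter), 1102 (at least 10 reads), 432 (8 libraries together) and 0 to 170 (1 left out). In AMPKα2, members called went from 0 to 4 (DESeq2), 1 (library totals), 20 (no filter, 18 higher), 1 (at least 10 reads) and 14 (replicate block, 12 higher). All APSs called went from 13 to 96 (DESeq2), 42 (library totals), 557 (no filter), 42 (at least 10 reads), 7 (8 libraries together), 519 (replicate block) and 0 to 76 (1 left out). The replicate numbers mark different mice, and deviations of same-numbered libraries correlated at −0.00504 to 0.0295, so the block has no basis in the design.

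Calls of the interaction went from 9 genes to 1 (library totals), 14 (terminal sites of every protein coding gene, chosen after seeing the data) and 0 to 542 (1 left out), of which 0 to 1 were members. Site usage in AMPKα1 went from 2 to 1 with the replicate block. Over terminal sites, the share difference was −0.291 percentage points for Myh1 in AMPKα1, and 3.22 for Myh7, 4.13 for Myh2 and −7.58 for Myh4 in AMPKα2. In AMPKα1, the terminal share difference of Myh2 was −1.55 with the last exon only, and that of Myh7 was 0.820 to 1.54 with 1 library left out. Directions turned for Myh4 in AMPKα2 with terminal sites of the members (−0.06) and for Myh8 in AMPKα2 with library totals (−0.01). With 1 library left out, the log2 fold change ran from −0.91 to 0.33 for Myh2 in AMPKα1 (above 0 without WT 1), from −0.21 to 0.53 for Myh8 in AMPKα2 (below 0 without KO 2 or WT 1) and from −0.68 to 0.45 for the interaction of Myh7 (above 0 without AMPKα1 KO 1 or AMPKα2 WT 2). Where KO and WT ranges overlapped, differences in shares also changed sign with 1 library left out (isoform shares of Myh2 in AMPKα1 and Myh1 in AMPKα2, terminal shares of Myh1 in both models and of Myh2 in AMPKα2). With terminal sites of every protein coding gene, the fold change of Myh4 in AMPKα2 was 0.00. The other share differences and member fold changes kept their direction in the settings run.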

Other observations

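Among 18 regulators of fibre type (such as Sox6, Ppargc1a and Mef2c), 0 were called in either model by edgeR or DESeq2. At an unadjusted p under 0.05, 1 was higher in each model (all genes, 1.38% in AMPKα1 and 4.78% in AMPKα2). In AMPKα1, 5 had both KO libraries above both WT libraries (all genes, 13.6%) and 2 below (all genes, 18.9%), with a median log2 fold change of 0.39. In AMPKα2, of 17 tested, 4 were above (all genes, 18.6%) and 0 below (all genes, 20.6%), with a median of 0.09. Of the genes of regenerating or denervated muscle, 7 were tested in AMPKα1 and 6 in AMPKα2, with medians of −0.06 and −0.14 and 0 calls by either tool. In AMPKα2, 1 gene was lower at an unadjusted p under 0.05 (all genes, 3.62%). Of the list of 11, 4 have no site among the deposited ones, which hold at least 16 reads over the 8 libraries. The 4 non-muscle and smooth muscle myosins had medians of 0.10 and −0.32, with 0 calls by either tool and 0 at an unadjusted p under 0.05. Endothelial (5 tested, medians −0.11 and −0.06), macrophage (6 and 5 tested, 0.55 and −0.25) and adipocyte genes (4 tested, 0.72 and −0.56) had 0 calls by either tool as well. At an unadjusted p under 0.05 in AMPKα1, 1 adipocyte gene was higher (all genes, 1.38%) and 1 macrophage gene lower (all genes, 2.85%). In AMPKα2, 1 endothelial gene was higher (all genes, 4.78%) and 1 macrophage gene lower (all genes, 3.62%) at this level. The adipocyte genes summed to 286 to 1705 CPM in AMPKα1 KO and 366 to 517 CPM in WT.

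Genes whose levels followed an adult myosin most closely were sought among 3852 other genes with at least 20 CPM on average and a read in every library, by Pearson's r of log2 CPM over 8 libraries, centred within each model. For Myh7 these were Mdh2 (r = 0.972), Tpm3 (0.972) and Msl2 (0.964), and for Myh2 they were Vim (0.978), C1ra (0.951) and Tecr (0.951). For Myh1 they were Gm36920 (0.986), Tmem38a (0.985) and Cap2 (0.980), and for Myh4 Dld (0.982), Laptm4a (0.971) and Mb (0.967). Among the adult myosins, r was 0.882 for Myh1 with Myh4, 0.575 for Myh2 with Myh4 and −0.166 for Myh7 with Myh4. These values describe 8 libraries that share their scaling, and the top of so many genes is high in any such search.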
